A study of Mus musculus with 6 samples.

Results

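The activator protein 1 (AP-1) and Egr factors are transcription factors of the immediate early class, and 10 of their genes were followed here through 3 sorted gates of spleen cells, which the labels call macrophages, from normal and leukemic mice. The genes were chosen by name, as those whose Entrez identifier in the deposited files maps to Fos (14281), Fosb (14282), Fosl2 (14284), Jun (16476), Junb (16477), Jund (16478), Atf3 (11910), Egr1 (13653), Egr2 (13654) or Egr3 (13655). All 10 were listed in all 6 libraries, out of 16058 genes listed in at least 1 library. All 10 passed the filter for testing, which asked for at least 1 FPKM (fragments scaled by transcript length and library depth) in at least 2 of the 6 libraries, as did 11616 genes in all. Every value was above 1 FPKM except Fosl2 in 1 library.

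The cells came from the spleen of C57BL/6 mice, given in the labels as 6-8 weeks old, and were sorted as Ly6chiF4/80lo, Ly6cloF4/80lo and Ly6cloF4/80hi, that is by the monocyte antigen Ly6c and the macrophage antigen F4/80. Each gate gave 1 library from normal mice (day 0) and 1 from mice with T cell acute lymphoblastic leukemia (T-ALL, day 15). The leukemia was a transfer model, in which GFP+ leukemia cells from diseased mice were given to mice that had not been irradiated, so the hosts kept their own blood cells. The labels do not say whether libraries came from separate or pooled mice. With 1 library per gate and state, the p-values below do not measure the spread between mice. In the model of all gates the error comes from how far the state difference varies between gates, part of which may be technical. A gene whose state difference varies between gates therefore has a larger error there.

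AP-1 is a dimer of a Jun protein with a Fos, Jun or ATF protein. Fos and Jun family genes and Egr1 are switched on within minutes of a stimulus, without new protein synthesis, through serum response factor, ternary complex factors and CREB downstream of ERK, and through JNK and p38 kinases, and their transcripts decay quickly. In macrophages these factors act on cytokine, protease and adhesion genes, Atf3 restrains inflammatory cytokine genes, and Egr1 and Egr2 take part in the maturation of monocytes. These genes are also known to be induced while tissue is dissociated and sorted.

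The promoters of the 4 genes that the results below turn on most are printed to show how differently these early response genes are built at the start site. Sequences are RefSeq entries on build GRCm38.p6, from 250 bases before to 50 bases after the start site, 5′ to 3′ on the gene's own strand, and 8 of the 10 genes had an entry. Capitals mark matches, on either strand, to TGACGT (the core of the CREB and ATF site), to TGANNTCA (the AP-1 or CRE type site with an 8-base span) and to TATAAA (the TATA box).
Fos promoter, chr12:85473640-85473939, plus strand: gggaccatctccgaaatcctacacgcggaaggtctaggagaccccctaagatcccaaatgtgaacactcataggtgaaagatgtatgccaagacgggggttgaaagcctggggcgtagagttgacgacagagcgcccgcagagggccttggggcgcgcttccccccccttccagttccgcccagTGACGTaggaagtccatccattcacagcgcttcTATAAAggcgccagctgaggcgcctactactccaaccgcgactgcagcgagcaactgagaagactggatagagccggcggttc
Jun promoter, chr4:95052173-95052472, minus strand: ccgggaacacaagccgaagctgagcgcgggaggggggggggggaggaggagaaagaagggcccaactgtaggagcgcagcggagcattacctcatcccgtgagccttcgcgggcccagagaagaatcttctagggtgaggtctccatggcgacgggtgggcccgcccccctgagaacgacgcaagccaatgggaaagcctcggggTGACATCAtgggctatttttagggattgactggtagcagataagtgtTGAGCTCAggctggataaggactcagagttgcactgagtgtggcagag
Junb promoter, chr8:84978699-84978998, minus strand: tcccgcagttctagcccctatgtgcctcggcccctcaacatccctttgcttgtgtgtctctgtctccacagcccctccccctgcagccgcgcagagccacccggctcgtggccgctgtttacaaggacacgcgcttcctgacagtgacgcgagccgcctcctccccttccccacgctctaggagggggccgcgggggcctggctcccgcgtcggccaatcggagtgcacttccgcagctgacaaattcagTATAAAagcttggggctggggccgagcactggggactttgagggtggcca
Atf3 promoter, chr1:191183284-191183583, minus strand: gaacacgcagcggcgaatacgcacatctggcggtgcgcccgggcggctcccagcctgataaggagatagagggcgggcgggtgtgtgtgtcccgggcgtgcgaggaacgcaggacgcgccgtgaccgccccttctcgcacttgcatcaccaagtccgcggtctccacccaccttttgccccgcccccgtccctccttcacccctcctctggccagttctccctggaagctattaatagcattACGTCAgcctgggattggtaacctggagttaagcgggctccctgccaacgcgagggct

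Counted from base 1 of the window, the Fos entry held the CREB core at bases 185 to 190 and the TATA box at bases 218 to 223. The Jun entry held the 8-base AP-1 or CRE site at bases 206 to 213 and at bases 253 to 260. The Atf3 entry held the CREB core on the opposite strand at bases 243 to 248, and the Junb entry held the TATA box at bases 251 to 256. Among 32851 promoter entries of the same length, 7.51% held the CREB core, 14.1% the 8-base site and 13.6% the TATA box. The CREB core was in entries of 3 members (Fos, Atf3 and Egr2), the 8-base site in 3 (Jun, Jund and Egr2), and the TATA box in 2 (Fos and Junb). A member was counted when any of its entries matched, and Egr2 had several entries. The percentages are of single entries, so counts and percentages are unlike measures. The Egr site GCGNGGGCG was in entries of Fosb and Fosl2 (5.55% of all entries), and a CArG box, the site of serum response factor, was in entries of Egr2 (1.63%). Egr1 and Egr3 had no entry, and sites outside the window were not searched. The shorter AP-1 site TGANTCA was in 0 of these members' windows, against 7.81% of all entries. The CREB core and the 8-base site can overlap in sequence, and no pair of matches did so in the printed windows. A match describes letters in this window and is not a measured binding site.

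The libraries followed their gates for Ly6c2, which was at 482 and 1405 FPKM in the normal and T-ALL Ly6chiF4/80lo libraries and between 11.8 and 21.4 FPKM in the other 4. Adgre1, which encodes F4/80, was at 529 and 234 FPKM in the Ly6cloF4/80hi libraries and between 47.3 and 86.7 FPKM in the other 4. The estimated depth was 6600000 to 8540000 fragments per library. The 8 macrophage genes, all detected, summed to 13719, 2927 and 3666 FPKM in normal Ly6chiF4/80lo, Ly6cloF4/80lo and Ly6cloF4/80hi, and T-ALL was at 0.493, 0.837 and 0.549 of normal. Most of this sum in the F4/80lo gates was Lyz2, whose normal libraries held 12010, 2075 and 670 FPKM in the same gate order. Its T-ALL libraries held 5901, 1707 and 744 FPKM, so Lyz2 was not lower in Ly6cloF4/80hi. The order of the gates in the macrophage sum thus rests largely on Lyz2. The 8 red pulp macrophage genes, all detected, summed to 10941 FPKM in normal Ly6cloF4/80hi but to 608 and 564 FPKM in the normal F4/80lo gates, and T-ALL was at 0.419, 0.375 and 0.289 of normal, with 8 of 8 genes called lower. Both sums were lower in T-ALL in every gate. Lists of other cells were also high, so none of the 3 gates carried macrophage genes alone. The 7 B cell genes summed to 3313 FPKM in normal Ly6cloF4/80lo and to 1727 and 1822 FPKM in normal and T-ALL Ly6cloF4/80hi. The 7 plasma cell genes summed to 5860 and 14659 FPKM in normal and T-ALL Ly6chiF4/80lo. T-ALL was above normal in every gate for the sums of plasma cell genes (2.28 to 3.55 times), myeloid progenitor genes (3.15 to 7.19 times) and basophil and mast cell genes (2.70 to 10.2 times). The 8 neutrophil genes, all detected, summed to 13435 FPKM in normal and 45184 FPKM in T-ALL Ly6chiF4/80lo, against 93.1 to 374 FPKM in the other 4 libraries. The 12 erythroid genes, all detected, summed to 796 and 827 FPKM in the normal and T-ALL Ly6chiF4/80lo libraries, to 613 and 6039 FPKM in Ly6cloF4/80lo and to 4543 and 36932 FPKM in Ly6cloF4/80hi. The 10 dividing-cell genes summed to 189 to 271 FPKM in the normal and 715 to 1086 FPKM in the T-ALL libraries, and for 9 of the 10 genes every T-ALL library was above every normal one. Among the 10 markers of T cells, which include the leukemic lineage, Trac was not found under its symbol in any library. That is not a measured 0. The 9 genes found summed to between 106 and 239 FPKM in all 6 libraries. The part of these cells in the members' levels was not tested.

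Of the 10 genes, 3 passed the test for lower expression in T-ALL over all 3 gates, namely Atf3, Junb and Egr3, and none passed for higher. Of all 11616 tested genes, 3.94% passed for lower expression and 12.1% in either direction. The Egr3 call was lost with no filter, with gate left out of the model and in every fit that left out a library. The Junb call was lost only without either Ly6cloF4/80hi library. Atf3 and Junb were lower in T-ALL in every gate, Atf3 by 4.72-fold to 9.51-fold. Fos, Fosb, Jun and Egr1 differed little between the states in Ly6chiF4/80lo and were 2.74-fold to 5.81-fold lower in T-ALL in the Ly6clo gates. This difference between gates did not pass a test after adjustment.

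**Figure D1:**
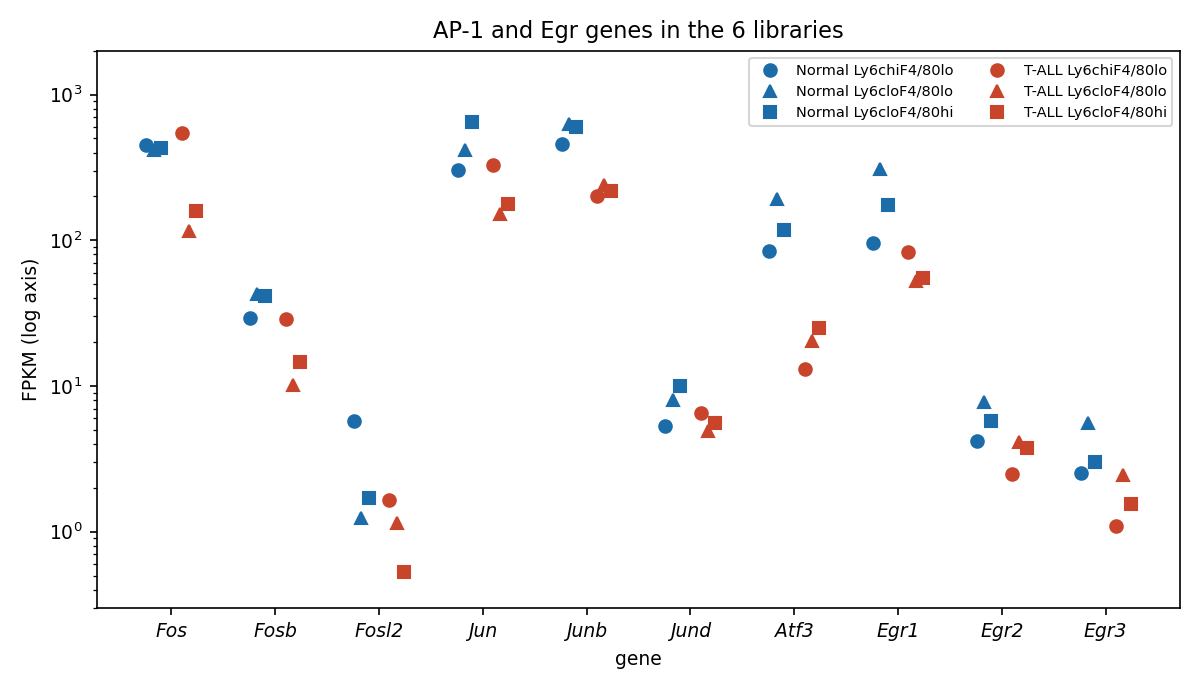
FPKM (log axis) of each of the 10 genes in the 6 libraries, with normal libraries in blue, T-ALL libraries in red and the gate given by the symbol, 1 point per library. For Junb and Atf3 all T-ALL points lie below all normal points, whereas the T-ALL Ly6chiF4/80lo point of Fos (545 FPKM as deposited) is the highest of its 6.

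Per length, Junb, Fos and Jun were the most abundant members in every library, followed by Egr1. In normal cells Junb ranked first in Ly6chiF4/80lo (459 FPKM) and Ly6cloF4/80lo (629 FPKM), and Jun ranked first in Ly6cloF4/80hi (650 FPKM). In normal Ly6chiF4/80lo, Junb (459 FPKM) and Fos (454 FPKM) stood next to each other at ranks 134 and 138 among all genes. In T-ALL Junb was still first in both Ly6clo gates (239 and 219 FPKM), and Fos was first in Ly6chiF4/80lo (545 FPKM). The low members were Jund, Egr2, Egr3 and Fosl2, none above 10.03 FPKM, and Fosl2 was lowest in 4 of the 6 libraries. With 1 library per gate and state, this order has no replicate error, and neighbours such as Junb and Fos in normal Ly6chiF4/80lo cannot be told apart.

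Fos encodes the founding Fos protein, which cannot pair with itself and needs a Jun partner. Its level was 454, 414 and 432 FPKM in normal Ly6chiF4/80lo, Ly6cloF4/80lo and Ly6cloF4/80hi, and 545, 116 and 158 FPKM in T-ALL in the same order. The 3 normal libraries lay within 1.10-fold of each other and the T-ALL libraries spread over 4.70-fold, so the states overlapped. T-ALL was 3.57-fold lower in Ly6cloF4/80lo and 2.74-fold lower in Ly6cloF4/80hi, and the T-ALL to normal ratio in Ly6chiF4/80lo was 1.20. That last direction depended on scaling, since the log2 difference was 0.26 as deposited, 0.33 after median-ratio rescaling and -0.10 after quantile normalization. Over all 3 gates the log2 change was -1.004 (SE 0.40, limma, adjusted p = 0.134), which did not pass. Because these are bulk samples, fewer cells that express a gene and less RNA per cell cannot be told apart.

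Fosb, a Fos paralogue that appears slightly later after a stimulus, had the same order of gates in T-ALL at a much lower level. It was at 29.3, 42.6 and 41.4 FPKM in the normal gates and 28.7, 10.1 and 14.5 FPKM in T-ALL. The Ly6chiF4/80lo libraries were alike in the 2 states, and the states were separated only by the narrow margin between 29.3 and 28.7 FPKM. T-ALL was 4.21-fold lower in Ly6cloF4/80lo and 2.85-fold lower in Ly6cloF4/80hi, and the change over all gates was -1.15 (SE 0.36, limma, adjusted p = 0.0831). Fosb stayed between 0.0528 and 0.103 of Fos in FPKM across the 6 libraries.

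Fosl2 encodes Fra-2, a Fos-related protein without the transactivation domain of Fos. Its levels were 5.75, 1.24 and 1.69 FPKM in the normal gates, against 1.65, 1.15 and 0.53 FPKM in T-ALL. It was high in 1 library, normal Ly6chiF4/80lo, and the other 5 overlapped between states. Here the T-ALL library was 3.48-fold lower in Ly6chiF4/80lo, 1.08-fold in Ly6cloF4/80lo and 3.19-fold in Ly6cloF4/80hi, so the gates ran in another order than for Fos and Fosb. The change was -0.74 (SE 0.28, limma, adjusted p = 0.118). At the estimated depth its lowest value rests on about 30 fragments, a counting error of 18.4%.

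Jun, the partner that can also form homodimers, was at 306, 420 and 650 FPKM in the normal gates and 329, 152 and 177 FPKM in T-ALL. In normal mice it was highest in Ly6cloF4/80hi and in T-ALL highest in Ly6chiF4/80lo, and the states overlapped through the Ly6chiF4/80lo pair. T-ALL was 2.76-fold lower in Ly6cloF4/80lo and 3.68-fold lower in Ly6cloF4/80hi. In Ly6chiF4/80lo the log2 difference was 0.10 as deposited, 0.17 after median-ratio rescaling and -0.22 after quantile normalization. The change over all gates was -1.08 (SE 0.38, limma, adjusted p = 0.105).

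Junb, a Jun protein that activates less strongly and can oppose Jun, was at 459, 629 and 597 FPKM in the normal gates, against 202, 239 and 219 FPKM in T-ALL. Every T-ALL library was below every normal one, by 2.27-fold, 2.64-fold and 2.73-fold within the 3 gates. Junb fell by 1.34 on the log2 scale (SE 0.17, limma, adjusted p = 0.0126). Without either Ly6cloF4/80hi library, which takes that gate out of the comparison, the value was -1.29 with adjusted p = 0.0587 or 0.0604.

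Jund is the Jun gene that is expressed steadily in resting cells. It was at 5.35, 7.98 and 10.0 FPKM in the normal gates, against 6.48, 4.92 and 5.59 FPKM in T-ALL, and the states overlapped. T-ALL was 1.62-fold lower in Ly6cloF4/80lo, 1.79-fold lower in Ly6cloF4/80hi and 1.21 times normal in Ly6chiF4/80lo. The change was -0.37 (SE 0.23, limma, adjusted p = 0.288), with a 95% interval from -0.92 to 0.18.

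Atf3, a stress-induced ATF protein that represses many of its targets as a homodimer, was at 84.2, 194 and 118 FPKM in the normal gates, against 13.2, 20.3 and 25.1 FPKM in T-ALL. The lowest normal library lay above the highest T-ALL library by more than 3-fold, and every gate showed the difference, at 6.39-fold, 9.51-fold and 4.72-fold. Atf3 fell by 2.66 on the log2 scale (SE 0.21, limma, adjusted p = 0.00832, 95% interval of the change from -3.16 to -2.15). It passed in each of the 6 fits that left out 1 library and under each other setting tried, with adjusted p between 0.00587 and 0.0361.

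Egr1, a zinc finger factor induced by ERK signalling, was at 95.2, 307 and 174 FPKM in the normal gates, against 83.7, 52.9 and 54.9 FPKM in T-ALL. The states did not overlap, but normal and T-ALL Ly6chiF4/80lo stood close together at the border. T-ALL was 1.14-fold lower in Ly6chiF4/80lo, 5.81-fold lower in Ly6cloF4/80lo and 3.17-fold lower in Ly6cloF4/80hi. The change was -1.45 (SE 0.42, limma, adjusted p = 0.0705).

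Egr2 and Egr3, paralogues of Egr1, were present at far lower levels. Egr2 was at 4.16, 7.81 and 5.79 FPKM in the normal gates, against 2.47, 4.14 and 3.77 FPKM in T-ALL, which is 1.54-fold to 1.89-fold lower. Its states were barely separated, with the highest T-ALL library at 4.14 and the lowest normal one at 4.16 FPKM, and its change was -0.62 (SE 0.16, limma, adjusted p = 0.0574). Egr3 was at 2.53, 5.58 and 3.03 FPKM in the normal gates, against 1.10, 2.45 and 1.55 FPKM in T-ALL, 1.95-fold to 2.30-fold lower. The T-ALL library of Ly6cloF4/80lo (2.45 FPKM) came close to the lowest normal library (2.53 FPKM). Egr3 fell by 0.78 on the log2 scale (SE 0.18, limma, adjusted p = 0.0419), a call that was lost in every fit that left out 1 library (adjusted p = 0.0938 to 0.155), with no filter (0.0748) and with no gate block (0.282). Its lowest value rests on about 29 fragments, a counting error of 18.7%.

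In all, 3 of the 10 members passed for lower expression in T-ALL, where 3.94% of the 11616 tested genes did so. None passed for higher expression, and 12.1% of tested genes passed in either direction. In 6 members (Fosb, Junb, Atf3, Egr1, Egr2 and Egr3) all 3 T-ALL libraries lay below all 3 normal ones, against 10.9% of tested genes, and in none were they all above (13.8%). In 7 members T-ALL was below normal in every gate, against 30.0% of tested genes. These counts use the values as deposited. After median-ratio rescaling the log2 difference of Fosb in Ly6chiF4/80lo turned to 0.0372, so Fosb then meets neither rule. The median change of the 10 members was -1.04 and that of all tested genes -0.03.

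**Figure D2:**
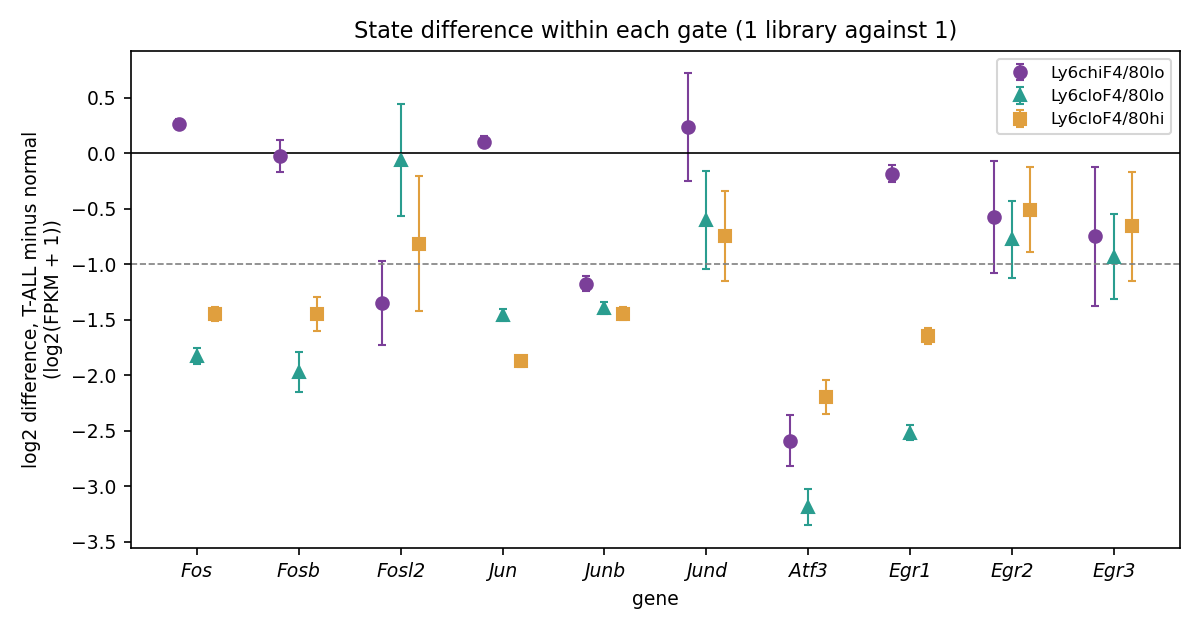
Log2 difference of T-ALL minus normal on log2(FPKM + 1) within each gate (symbol and colour), 1 library against 1. A dashed line marks a 2-fold lower level. Bars show only the 95% counting error of the log2 ratio without the added 1, which is too wide for low genes. Fos, Fosb, Jun and Egr1 lie near 0 in Ly6chiF4/80lo and below the dashed line in both Ly6clo gates, and Atf3 and Junb lie below it in all 3.

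Within a gate there was 1 library per state, so differences there are descriptions without a test. At least a 2-fold lower level on the log2(FPKM + 1) scale was seen for 3 members in Ly6chiF4/80lo (3.86% of tested genes), 6 in Ly6cloF4/80lo (1.55%) and 6 in Ly6cloF4/80hi (5.51%). In Ly6chiF4/80lo these were Fosl2, Junb and Atf3. In both Ly6clo gates Fos, Fosb, Jun, Junb, Atf3 and Egr1 were among them. No member was 2-fold higher in any gate, where 6.19%, 5.43% and 9.58% of tested genes were.

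Fos, Fosb, Jun and Egr1 were within 2-fold in Ly6chiF4/80lo and at least 2-fold lower in both Ly6clo gates. This rule, chosen after the values were seen, took 4 of the 10 members and 44 (0.379%) of the tested genes. Among the 44 were other immediate early genes, namely Btg2, an antiproliferative cofactor, Per1, a clock gene, Rhob, a small GTPase, and the kinase gene Plk3. Also among them were Ptgs2, Cxcl2 and Mmp12, from the list of AP-1 and Egr targets. Rhob stood apart within the list, at 5.13, 20.7 and 25.6 FPKM in the normal gates, against 11.03, 3.87 and 11.4 FPKM in T-ALL.

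A fit that gave Ly6chiF4/80lo its own state change and the 2 Ly6clo gates a shared one was added after the data were seen. It left 1 residual degree of freedom. In the Ly6clo gates 6 members passed for lower expression in T-ALL (Fos, Fosb, Jun, Junb, Atf3 and Egr1), against 1.52% of tested genes. Fos was at -1.64 (SE 0.25, limma, adjusted p = 0.0265), Fosb at -1.71 (SE 0.19, adjusted p = 0.0155), Jun at -1.67 (SE 0.25, adjusted p = 0.0258) and Egr1 at -2.08 (SE 0.25, adjusted p = 0.0173). With no filter on low values none of the 6 passed (adjusted p = 0.264 for each), although the changes were equal. Leaving out either Ly6chiF4/80lo library from the model of all gates rests on the same 4 libraries for this comparison and gave the same estimates, with 6 members lower in T-ALL, against 1.71% and 1.79% of the genes then tested.

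The difference between the gates did not pass after adjustment. The state change in Ly6chiF4/80lo minus that in the Ly6clo gates was 1.90 for Fos (95% interval 0.82 to 2.97, limma, adjusted p = 0.404) and 1.68 for Fosb (0.86 to 2.51, adjusted p = 0.348). It was 1.77 for Jun (0.69 to 2.85, limma, adjusted p = 0.432) and 1.90 for Egr1 (0.81 to 2.99, adjusted p = 0.404). For Atf3 it was 0.10 (-1.03 to 1.23) and for Junb 0.24 (-0.82 to 1.30), and both intervals include a 2-fold smaller fall in Ly6chiF4/80lo. Unadjusted p was under 0.05 for 5 members (the 4 above and Jund) and for 868 (7.47%) of the tested genes, and 0 genes (0.0%) passed after adjustment. The 8 neutrophil genes summed to 3.36 times the normal level in T-ALL Ly6chiF4/80lo, and the 12 erythroid genes to 9.85 and 8.13 times the normal level in T-ALL Ly6cloF4/80lo and Ly6cloF4/80hi.

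**Figure D3:**
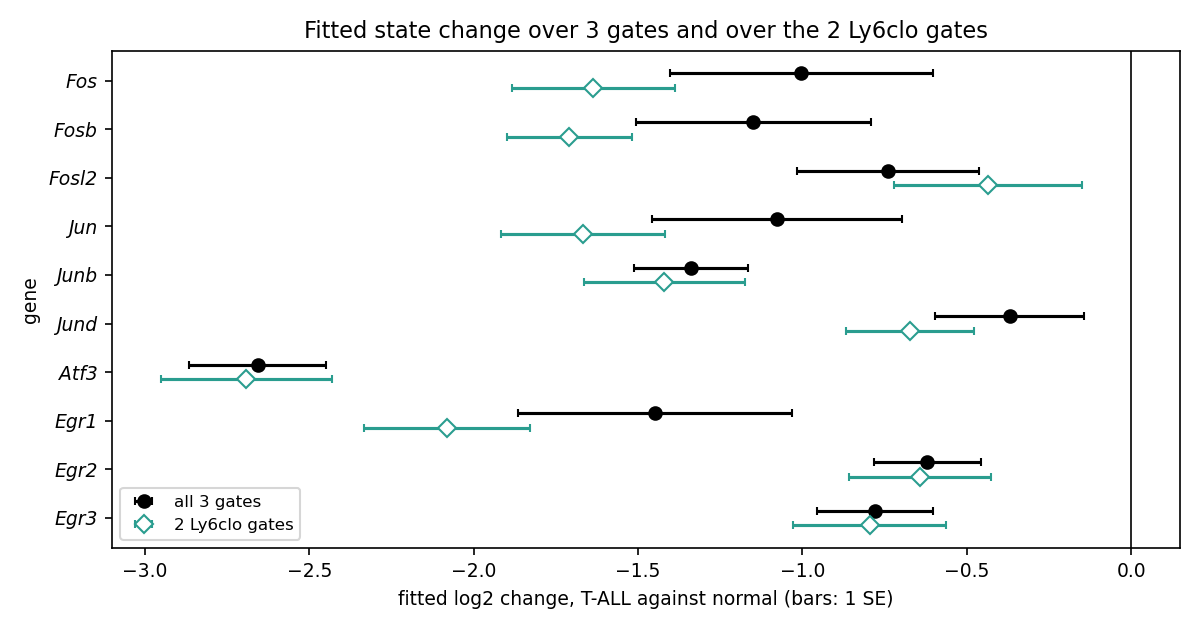
Fitted log2 change of T-ALL against normal with 1 SE for each gene, over all 3 gates (filled circles) and over the 2 Ly6clo gates in the added fit (open diamonds). The values of Fos, Fosb, Jun and Egr1 lie farther from 0 over the 2 Ly6clo gates, while those of Junb, Atf3, Egr2 and Egr3 hardly move.

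The makeup of the AP-1 and Egr transcript pool differed between libraries. The 10 genes summed to 1445, 2028 and 2034 FPKM in normal Ly6chiF4/80lo, Ly6cloF4/80lo and Ly6cloF4/80hi, and to 1213, 602 and 659 FPKM in T-ALL. The sum was thus 1.19-fold lower in T-ALL in Ly6chiF4/80lo, and 3.37-fold and 3.09-fold lower in the Ly6clo gates. Fos family genes made up 33.9%, 22.5% and 23.4% of the sum in normal and 47.4%, 21.1% and 26.2% in T-ALL, and Jun family genes 53.3%, 52.1% and 61.8% in normal and 44.3%, 65.6% and 60.8% in T-ALL. T-ALL Ly6chiF4/80lo was the single library with a larger Fos family than Jun family share. There Fos was 2.69 times Junb, against 0.486 to 0.991 in the other 5 libraries, and 41.4 times Atf3, against 2.14 to 6.29. Within the Egr family, Egr1 was 22.9 to 39.3 times Egr2 in the normal libraries and in T-ALL 33.9 times in Ly6chiF4/80lo, 12.8 times in Ly6cloF4/80lo and 14.6 times in Ly6cloF4/80hi.

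**Figure D4:**
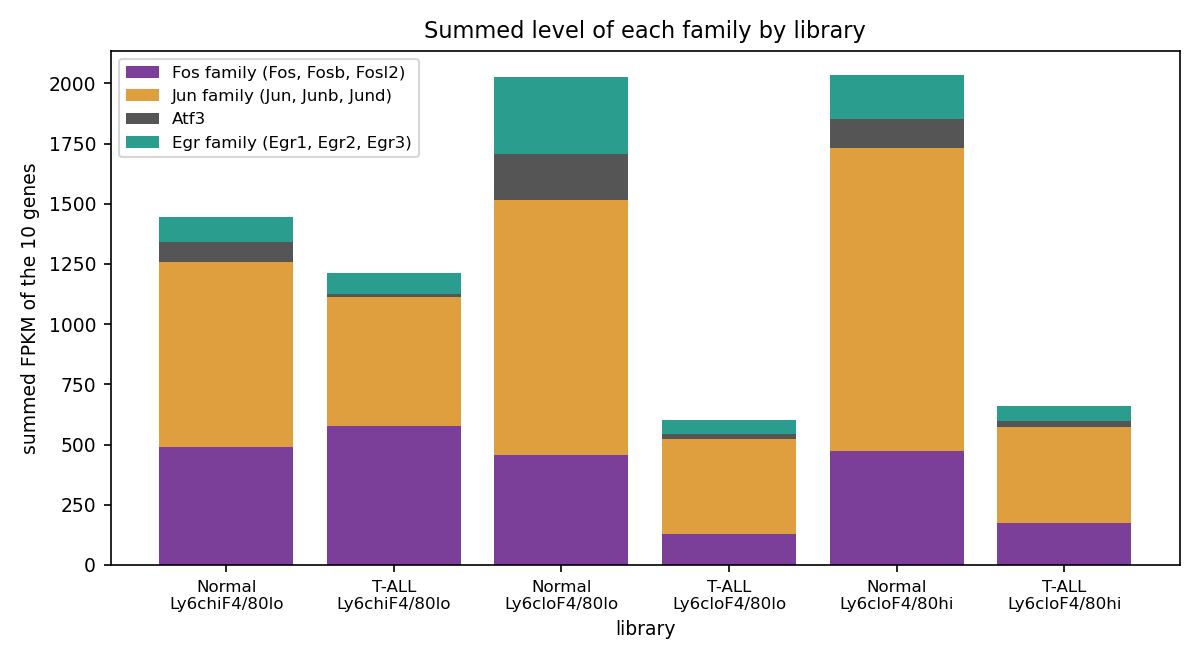
Summed FPKM of the Fos family, Jun family, Atf3 and Egr family in each library, stacked, with the normal and T-ALL library of a gate side by side. The Ly6chiF4/80lo pair is similar in height (1445 and 1213 FPKM), and in both Ly6clo gates the T-ALL bar is much lower than the normal bar.

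Between gates, no member passed the test. Of the tested genes, 12.8% passed between Ly6cloF4/80hi and Ly6chiF4/80lo, 4.73% between Ly6cloF4/80lo and Ly6chiF4/80lo, and 3.56% between the 2 Ly6clo gates. These 3 comparisons share libraries and are not independent. For Fos, Ly6cloF4/80lo against Ly6chiF4/80lo gave -1.18 (SE 0.49, limma, adjusted p = 0.192), with normal libraries at 414 and 454 FPKM and T-ALL libraries at 116 and 545 FPKM. Without the normal Ly6chiF4/80lo library, which leaves that gate with its T-ALL library alone, Fos passed in this comparison (-2.13, adjusted p = 0.0304) and in that of Ly6cloF4/80hi against Ly6chiF4/80lo (-1.87, adjusted p = 0.0254). Without the T-ALL Ly6chiF4/80lo library the same comparisons gave -0.23 (adjusted p = 0.758) and 0.0232 (adjusted p = 0.980), by limma. Egr3 was higher in Ly6cloF4/80lo than in Ly6chiF4/80lo in both states, at 5.58 against 2.53 FPKM in normal and 2.45 against 1.10 FPKM in T-ALL, with a log2 difference of 0.81 (SE 0.22, limma, adjusted p = 0.0888). Atf3 (0.89, SE 0.25, limma, adjusted p = 0.101) and Egr2 (0.67, SE 0.20, limma, adjusted p = 0.110) were also higher there in both states without passing. Fosl2 was lower in Ly6cloF4/80hi than in Ly6chiF4/80lo in both states, by a log2 difference of -1.06 (SE 0.34, limma, adjusted p = 0.0964).

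Of 30 tested genes in a list of 31 other immediate early genes, 9 fell in T-ALL (3.94% of all tested genes did) and none rose. The other 21 did not pass, the median was -0.64, and 18 were lower in every gate, against 30.0% of all tested genes. The 9 were Ier2, Nr4a1, Klf2, Klf6, Btg2, Zfp36, Dusp1, Per1 and Plk2. Plk2, a polo-like kinase, fell from 11.9, 21.6 and 21.2 FPKM to 3.53, 5.38 and 4.54 FPKM (-1.78, SE 0.16, limma, adjusted p = 0.00832). Dusp1, a phosphatase that switches off MAP kinases, went from 369, 348 and 420 FPKM to 136, 126 and 124 FPKM (-1.55, SE 0.17, limma, adjusted p = 0.00898). Zfp36, which promotes decay of AU-rich transcripts, went from 845, 932 and 1024 FPKM to 407, 340 and 324 FPKM (-1.39, SE 0.21, limma, adjusted p = 0.0168). Nr4a1, a nuclear receptor, went from 537, 359 and 177 FPKM to 237, 186 and 68.0 FPKM (-1.16, SE 0.17, limma, adjusted p = 0.0158). All 4 were lower in T-ALL in all 3 gates, as Atf3 and Junb were.

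**Figure D5:**
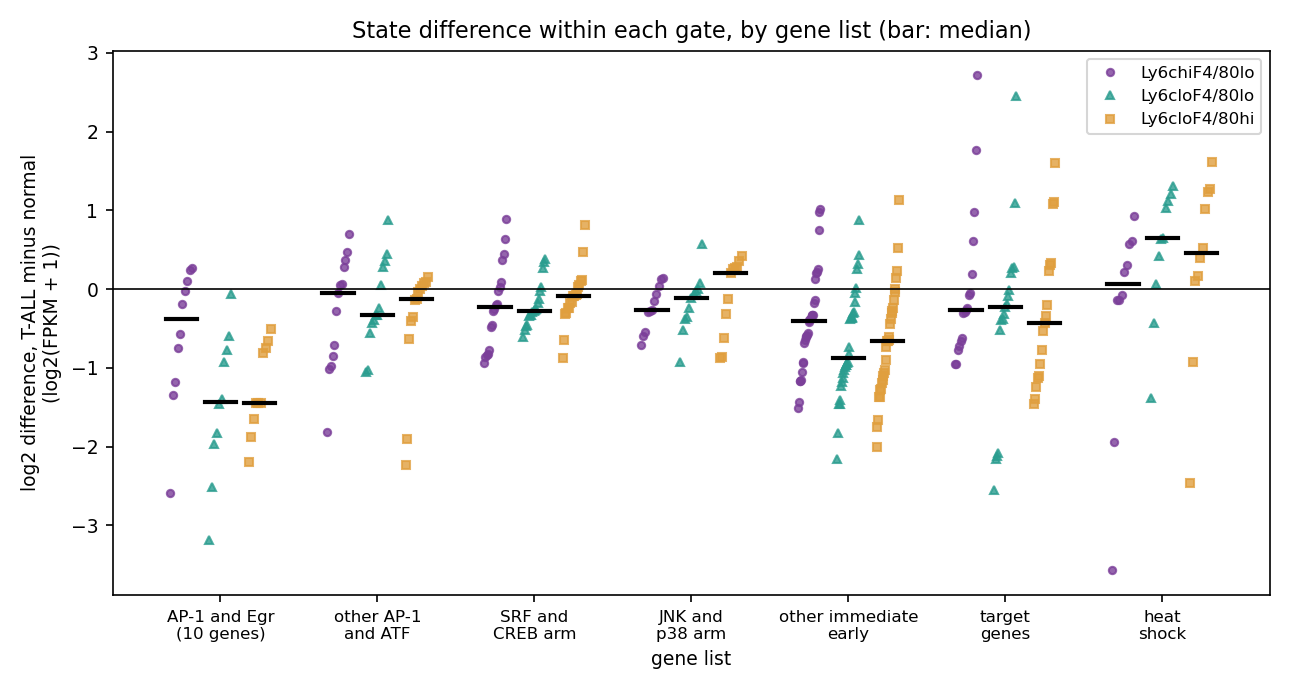
Log2 difference of T-ALL minus normal on log2(FPKM + 1) within each gate for each tested gene of 7 gene lists, 1 point per gene, with a black bar at the median. The AP-1 and Egr genes have medians of -0.38, -1.43 and -1.45 in Ly6chiF4/80lo, Ly6cloF4/80lo and Ly6cloF4/80hi, and the other immediate early genes -0.40, -0.88 and -0.66.

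Genes that act upstream were also examined, where 12.1% of all tested genes passed in either direction. Whether these short lists differ from that share was not tested. In the arm of serum response factor, ternary complex factors, CREB and ERK, 0 of 18 tested genes passed in either direction (median -0.20). Among those with at least 5 FPKM the largest differences were Mrtfb, a coactivator of serum response factor, at -0.68 (adjusted p = 0.0583) and the coactivator Ep300 at -0.51 (adjusted p = 0.0854), both by limma. In the JNK and p38 arm 1 of 11 passed (median -0.13). That gene was Mapk14, which encodes p38 alpha, at 23.5, 30.2 and 30.8 FPKM in the normal gates, against 15.8, 20.9 and 16.5 FPKM in T-ALL (-0.64, SE 0.14, limma, adjusted p = 0.0396).

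Of the other AP-1 and ATF subunits, 13 of 16 were tested, with a median of -0.08. Of these, 1 fell (3.94% of all tested genes did) and none rose. Batf3, a dendritic cell factor, did not pass (-0.99, limma, adjusted p = 0.0783). Dendritic cell markers summed to 154 to 388 FPKM in normal and 92.4 to 202 FPKM in T-ALL, and 7 of those 7 genes were lower in every gate. Among Egr partners, the corepressor gene Nab2, itself induced by Egr factors, fell from 6.42, 9.01 and 7.32 FPKM to 3.72, 5.07 and 4.76 FPKM (-0.63, SE 0.15, limma, adjusted p = 0.0481), and Nab1 was at -0.22 (adjusted p = 0.392).

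Known AP-1 and Egr targets of myeloid cells went in both directions. Of 17 tested genes in a list of 25, 4 fell (Il1b, Ptgs2, Mmp12 and Icam1), where 3.94% of all tested genes did. Another 2 rose (Il10 and Spp1), where 952 of all 11616 tested genes did. The median was -0.45. Ptgs2, which encodes the inducible cyclooxygenase, was at 1.83, 6.43 and 4.08 FPKM in the normal gates, against 0.47, 0.67 and 0.93 FPKM in T-ALL (-1.50, SE 0.27, limma, adjusted p = 0.0247). Mmp12, the macrophage elastase gene, was at -1.36 (SE 0.28, limma, adjusted p = 0.0345). Il10, an anti-inflammatory cytokine gene, rose from 0.31, 1.68 and 1.53 FPKM to 7.58, 4.74 and 6.65 FPKM (1.80, SE 0.32, limma, adjusted p = 0.0241). Spp1, which encodes osteopontin, rose from 2.10, 1.63 and 1.22 FPKM to 5.11, 13.3 and 3.77 FPKM (1.51, SE 0.31, limma, adjusted p = 0.0345).

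Heat shock genes, which tissue handling also induces, did not move as 1 group. Of 10 tested, 1 fell (3.94% of all tested genes did) and 3 rose (952 of all 11616 did), with a median of 0.39. Hspa1a, the inducible Hsp70 gene, was at 196, 53.4 and 56.5 FPKM in the normal gates, against 15.6, 19.9 and 9.43 FPKM in T-ALL (-2.47, SE 0.39, limma, adjusted p = 0.0207), and its near-identical neighbour Hspa1b, with which it may share reads, at -1.10 (limma, adjusted p = 0.0655). The mitochondrial chaperone genes Hspe1 (1.22, SE 0.18, limma, adjusted p = 0.0163) and Hspd1 (1.05, SE 0.19, limma, adjusted p = 0.0262) rose, as did Hsph1. The part of handling in the members' levels was not tested.

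Profiles most like those of the members were sought among 6429 tested genes with a mean of at least 10 FPKM, by Pearson's r of log2(FPKM + 1) over the 6 libraries, which share 3 gates and 2 states. Against the mean of the 10 members the highest were Tmub2 (0.993), Ddx58 (0.993), Slc35c2 (0.992), Per1 (0.984), Ddit3 (0.983) and Btg2 (0.982). Their ranges differed greatly, from 31.0 to 36.6 FPKM for Tmub2 to 82.3 to 242 FPKM for Btg2. For single members the nearest gene was Rps6kb2 for Fos (0.977), Irs2 for Fosb (0.973), Ccdc47 for Jun (0.988) and Plk2 for Junb (0.995). It was Parp10 for Jund (0.987), Txnip for Atf3 (0.982), Tmub2 for Egr1 (0.963), Baz2b for Egr2 (0.994) and Tbc1d1 for Egr3 (0.994). With 6 libraries and 6429 candidates such values describe these libraries only.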

How the data were processed

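Total RNA of the sorted cells was purified with RNeasy columns (QIAGEN), and libraries were run on an Illumina HiSeq, per the labels' protocols. The unit of the deposited tables is FPKM, which the authors made with Bowtie2 2.2.5 and RSEM, according to the submitters' processing notes. Build, annotation and RSEM version: not given in the sources used here. RSEM shares out reads that fit several genes, which can affect near-identical copies. Genes absent from a table were set to 0 FPKM. RefSeq symbols matched 16017 of 16058 identifiers. Depth was estimated from the spacing of low FPKM values over genes with 1 transcript length (GENCODE M21). Fragment numbers of members used the longest protein-coding transcript there. They may thus be too high, and the counting errors too low.

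Tests used log2(FPKM + 1), a scale that understates changes of low genes, in limma 3.58.1 (R 4.3.3, statmod 1.5.0), with a trended and robust prior. The model had gate and state as terms over all 6 libraries (2 residual degrees of freedom). Tests were two-sided, with Benjamini-Hochberg adjustment over 11616 genes and a threshold of 0.05. The fits were run on simulated data with independent errors. Such data hold no spread between mice, so they do not show that the p-values are calibrated. Tables and figures used Python 3.11.15, numpy 2.4.6, pandas 2.3.3 and matplotlib 3.10.9.

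The members and gene lists were chosen with earlier results of these data known. Besides the 10 members, up to 4 genes per list were named, those of largest absolute change with at least 5 FPKM in 1 library, and by likeness the 6 nearest genes to the members' mean and the nearest to each member. Some genes that these rules pick are not reported here. The genes of the shared gate pattern, the remaining called genes of a list and the added comparison were chosen after the values were seen. Alternatives were a pseudocount of 0.1, no filter, median-ratio rescaling, quantile normalization, no trend and robust prior, no block, and each library left out in turn.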

Additional observations from a re-analysis of the deposited data

Results flagged for a closer look

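For 3 members the T-ALL library of Ly6chiF4/80lo was above the normal one while both Ly6clo gates went the other way. The log2 difference in Ly6chiF4/80lo was 0.261 for Fos, 0.103 for Jun and 0.236 for Jund, with Fos and Jun turning to -0.10 and -0.22 after quantile normalization. The difference of this change from that of the Ly6clo gates had adjusted p = 0.404 for Fos, 0.432 for Jun and 0.646 for Jund in the added limma fit, so none passed. For Jund the difference was 0.91 (95% interval 0.06 to 1.75), and its counting error in Ly6chiF4/80lo spanned 0.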

How the results depend on the processing

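Every member kept a lower fitted level in T-ALL over all gates under all 12 alternatives, and Atf3 kept its call under each. Members called ranged from 1 to 6 when 1 library was left out: 6 without either Ly6chiF4/80lo library and 1 without either Ly6cloF4/80hi library. Without either Ly6chiF4/80lo library the state comparison rests on the Ly6clo libraries alone, as in the added fit. Why fewer members passed without either Ly6cloF4/80hi library was not tested. Genes called in T-ALL against normal numbered 1410, with 370 under no filter, 161 with no block, and 318 to 1028 with 1 library left out. For Ly6cloF4/80hi against Ly6chiF4/80lo they numbered 1485, with 867, 197, and 621 to 1339 in the same order, and members called 0 to 1. For Ly6cloF4/80lo against Ly6chiF4/80lo they numbered 549, with 156, 0, and 79 to 756, and members called 0 to 1. For the 2 Ly6clo gates they numbered 414, with 173, 0, and 127 to 665. Scaling turned the sign of Jun in Ly6cloF4/80hi against Ly6chiF4/80lo (-0.0169, median-ratio), of Jund in Ly6cloF4/80lo against Ly6chiF4/80lo (-0.10 median-ratio, -0.15 quantile), and of Junb between the Ly6clo gates (0.00051 median-ratio, 0.0699 quantile). Within Ly6chiF4/80lo it turned Fosb (0.0372, median-ratio), Fos (-0.10, quantile) and Jun (-0.22, quantile). Leaving out 1 library turned uncalled differences between gates. In Ly6cloF4/80hi against Ly6chiF4/80lo the range was -1.87 to 0.0232 for Fos, -1.07 to 0.61 for Fosb, -0.79 to 0.98 for Jun, -0.15 to 0.76 for Jund and -0.82 to 1.08 for Egr1. In Ly6cloF4/80lo against Ly6chiF4/80lo it was -1.29 to 0.39 for Fosb, -1.21 to 0.56 for Jun, -0.37 to 0.54 for Jund and -0.44 to 1.46 for Egr1. Between the Ly6clo gates it was -0.36 to 0.87 for Fos, -0.39 to 0.84 for Fosb, -0.62 to 0.40 for Fosl2, -0.17 to 1.02 for Jun, -0.0547 to 0.51 for Jund, -0.60 to 0.19 for Atf3 and -1.18 to 0.42 for Egr1. In the added comparison the difference between gates called 0 genes and 1 with a pseudocount of 0.1, where Egr3 turned to -0.0925. Its Ly6clo part called 911 genes, 559 after median-ratio rescaling, 497 with no trend and robust prior, and 0 genes and 0 members with no filter (2809 genes at an unadjusted p under 0.05). The model itself pairs the states by gate. No paired analysis was possible because the labels give no replicate numbers to add to that gate block. A library left out leaves its gate with 1 sample, which is assumed to vary like the others. Depth limits Fosl2 and Egr3 most.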
